A study of Cricetulus griseus with 24 samples.

Results

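The genes described here carry glucose into the cell, run glycolysis and lactate export, and make up the pentose phosphate pathway, in Chinese hamster ovary (CHO) cells that produce an antibody. The members were 37 gene symbols given in advance for these pathways, and 36 of them had counts among the 28037 genes of the counts table (Eno1 was not analysed here). A0 is an antibody-producing CHO DG44 cell line, made by transfection with a plasmid for the antibody heavy chain and another for the light chain. A1 is the progeny of A0 after stepwise selection with methotrexate to amplify the transgenes. CHO-S, which the labels give as a CHO-S cell line and do not call antibody-producing, was the comparison line here. The paper does not describe it. It differs from A0 and A1 in host and may differ in selection history. Each line was sampled at exponential and at stationary growth phase, with 4 cultures of A0 and 3 cultures each of A1 and CHO-S at each phase. With 1 cell line of each kind, a difference between lines cannot be told apart from a difference between single clones.

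Messenger RNA was sequenced in 24 libraries, and the 8 libraries of A0 at exponential phase, by their titles 2 from each of 4 cultures, were summed per culture, which left 20 cultures. The extra libraries of A0 exponential cultures 1 and 2 carry RLT, the name of a lysis buffer, in their titles, and those of cultures 3 and 4 are named as duplicates, and nothing but the titles ties them to their cultures. The study's methods speak of triplicate batch cultures in suspension flasks, while the labels number 4 cultures of A0 at each phase, and the labels of CHO-S carry the letters NDST, which they do not explain. Gene counts per library ranged from 1038026 to 14652646, with a median of 12166034. CHO-S stationary replicate 1, called the shallow library from here on, stood apart with 1038026 gene counts and 32.8% of its reads outside annotated genes, against 11.9% to 18.4% in the others. Fold changes and counts of called genes in single comparisons that involve CHO-S at stationary phase are therefore given with and without it, alternatives aside. Counts over all 3 lines were made with it only. The share of reads that did not align was 10.3% to 11.5% in A1 at stationary phase and 2.31% to 2.36% in CHO-S at exponential phase. In A0 at exponential phase it was 4.22% to 4.85% for cultures 1 and 2 and 3.13% to 3.39% for cultures 3 and 4. At stationary phase it was 8.91% to 9.41% for A0 cultures 1 and 2 and 6.43% to 6.97% for cultures 3 and 4. Its part in the results was not tested. Vim (vimentin, a filament protein of mesenchymal-like cells such as CHO) was at 728 to 1465 CPM over all 20 cultures, where CPM are counts scaled to the same library total with TMM factors.

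In background terms, glycolysis splits glucose into pyruvate and yields ATP, and cells that run it fast return much of the pyruvate to the medium as lactate. CHO cells in culture are known for making lactate while they grow fast and for taking it up again later in many processes. The pentose phosphate pathway branches off at glucose phosphate and supplies NADPH for biosynthesis and ribose phosphate for nucleotides.

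Gapdh, glyceraldehyde phosphate dehydrogenase, is often used as a reference gene, and it varied between the A0 cultures and between the lines. At exponential phase Gapdh (gene 100736557) lay at 4054, 4532, 4151 and 2489.9 CPM in A0, 3210.4, 3312 and 3268 CPM in A1 and 5839, 5829 and 5778 CPM in CHO-S. At stationary phase Gapdh lay at 2248, 2202, 2011 and 2012 CPM in A0, 2264, 2452 and 2332 CPM in A1 and 7324, 10446 and 8239.9 CPM in CHO-S. A0 culture 4 was the low one at exponential phase, below every A1 culture, while the other A0 cultures were above every A1 culture. Both libraries of culture 4 were low, at 2379 and 2567 CPM, and the other 6 A0 exponential libraries ran from 3914 to 4686 CPM. Gapdh was named for its variation between A0 cultures when the genes were chosen, so that variation is described here without a rank. Its coefficient of variation among the A0 cultures was 23.7% at exponential and 5.88% at stationary phase, beside medians of 11.1% and 9.16% over the 10588 genes that averaged 5 CPM or more. In A1 it was 1.56% and 4.05%, beside medians of 5.57% and 6.39%. In CHO-S it was 0.5600% and 18.5% (the latter with the shallow library), beside medians of 4.398% and 25.6%, so the exponential cultures of A0 varied more than those of A1 and CHO-S over all genes too. Part of this lay between pairs of A0 cultures. In the edgeR fit of A1 against A0 at exponential phase the common coefficient of variation was 0.118 with all 4 A0 cultures. It was 0.061 with cultures 1 and 2 alone and 0.088 with 3 and 4 alone. Cultures 1 and 2 both lay above 3 and 4 for 8 of the 32 members with at least 5 CPM, and both below for 9. What sets the pairs apart was not tested. A0 culture 4 was the lowest A0 exponential culture for 8 of the 32 members at that level (Pgm2, Pfkfb3, Tigar, Tpi1, Gapdh, Pkm, Ldha and Pdk2) and the highest for 10. An even split over 4 cultures would also give 8 of 32, so culture 4 was not set apart over the members. The shares over all genes were not counted. The strand setting of the read counting is not stated, so counts of genes that overlap a neighbour on the opposite strand are uncertain. HTSeq sets aside reads that align to several places (12.7% to 14.8% of the reads), so counts of genes with near-identical copies, such as Gapdh with its pseudogenes, are uncertain.

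**Figure D1:**
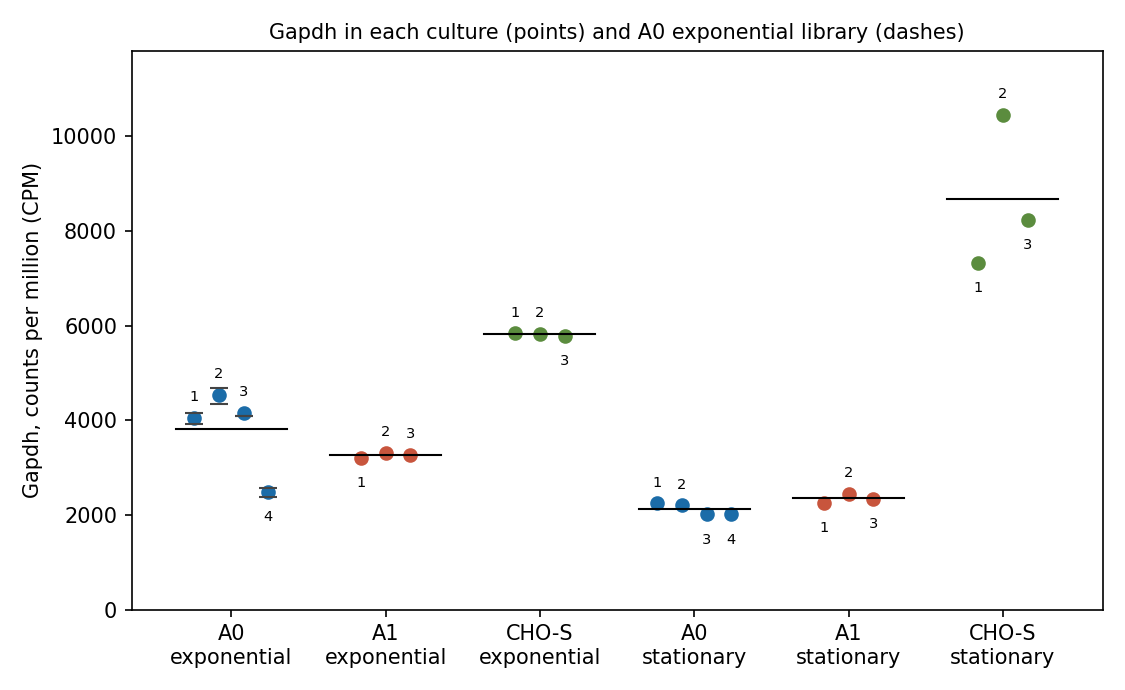
Gapdh in CPM (vertical axis) in each culture (points, numbered by culture) of the 6 groups, with group means as lines and the single A0 exponential libraries as dashes. A0 exponential culture 4 sits at 2490 CPM against 4054 to 4532 CPM in the other A0 exponential cultures, and all CHO-S cultures sit above all A0 and A1 cultures.

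Gapdh in A1 against A0 at exponential phase did not pass the test (log2 fold change -0.22 ± 0.15, edgeR adjusted p = 0.319). Without A0 culture 4 it was lower in A1 (-0.38 ± 0.07, edgeR adjusted p = 0.0017), so the call turned on this culture. A replicate block, which leaves culture 4 out of this comparison, gave -0.38 ± 0.07, edgeR adjusted p = 0.000181. With A0 cultures 1 and 2 alone the value was -0.40 ± 0.06, edgeR adjusted p = 0.00108, and with cultures 3 and 4 alone it was -0.03 ± 0.17, edgeR adjusted p = 0.914. At stationary phase every A1 culture was above every A0 culture, but the difference of 0.14 ± 0.07, edgeR adjusted p = 0.126 did not pass. It passed with total counts as the scale (0.20 ± 0.06, edgeR adjusted p = 0.0192) and with A0 cultures 3 and 4 alone (0.22 ± 0.05, edgeR adjusted p = 0.0047). Gapdh was lower in A0 than in CHO-S at exponential phase (log2 fold change -0.60 ± 0.15, edgeR adjusted p = 0.00415, and -0.45 without A0 culture 4). At stationary phase Gapdh was again below CHO-S in A0 (log2 fold change -2.05 ± 0.14, edgeR adjusted p = 2.78e-06, and -2.13 without the shallow library). A1 stood below CHO-S at exponential (log2 fold change -0.84 ± 0.04, edgeR adjusted p = 2.04e-15) and stationary phase (-1.90 ± 0.15, edgeR adjusted p = 4.77e-05, and -2.02 without the shallow library). In bulk cultures such as these, fewer cells that express a gene and less RNA per cell cannot be told apart.

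The 36 members together summed to 13359 ± 1187 CPM (mean ± SD, n = 4) in A0 at exponential phase and to 10346 ± 593 CPM (n = 4) at stationary phase. In A1 the sum was 12840.0 ± 132 CPM (n = 3) at exponential and 9942 ± 283 CPM (n = 3) at stationary phase. CHO-S went the other way, from 16688 ± 75.95 CPM (n = 3) at exponential to 23821 ± 5468 CPM (n = 3) at stationary phase, and the CHO-S stationary cultures held 17992, 28835 and 24637 CPM. The stationary cultures were all below the exponential ones in A0 and in A1, and all above them in CHO-S, where the shallow library was the lowest of the stationary cultures. Without Gapdh the shallow library, at 10667 CPM, lay under the CHO-S exponential cultures (10828 to 10927 CPM). These sums were not tested.

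A1 and A0 differ in the methotrexate amplification, so this comparison asks how the pathway's genes differ between the amplified line and its parent. At exponential phase 16 of the 35 members tested passed (edgeR's quasi-likelihood test, Benjamini-Hochberg adjusted p below 0.05), 9 higher and 7 lower in A1, where 25.7% of all genes tested passed, 11.97% higher and 13.8% lower. Among members with at least 5 CPM on average 16 of 32 passed, beside 37.96% of all genes at that level. The members higher in A1 were Gpi, Pgm1, Aldoa, Pgk1, Pgam1, Slc16a1, Pdk2, Pgls and Pgd, and the lower ones were Slc2a1, Pgm2, Pfkm, Pfkp, Pfkfb3, Pdk1 and Rpia. No called member reached a change of 1.5-fold, and the sizes ran from 0.30 to 0.58 on the log2 scale, from Slc16a1 to Pgm2. At stationary phase 22 of 36 members passed, 9 higher and 13 lower in A1, where 33.7% of all genes tested passed, 15.99% higher and 17.7% lower. Of the 32 members with at least 5 CPM 21 passed, beside 47.996% of all genes at that level. Those higher in A1 were Gpi, Pgm1, Pfkl, Pfkfb2, Pgam1, Eno3, Slc16a3, Pdk2 and Pdk3. Lower in A1 were Slc2a1, Hk1, Hk2, Pgm2, Pfkm, Pfkp, Pfkfb3, Pfkfb4, Pgk1, Pkm, Pdk1, Tkt and Rpia. With all 6 groups in 1 fit 11 members passed at exponential phase (beside 20.2% of all genes), without Pgm1, Pgk1, Pgam1, Slc16a1 and Pgls, and 16 at stationary phase (beside 24.1%), without Slc2a1, Pfkl, Pgk1, Pgam1, Pkm and Tkt. The median log2 fold change over the members tested was 0.04 at exponential and -0.07 at stationary phase, beside -0.04 and 0.00 over all genes tested, and 0.04 and -0.08 beside -0.01 and 0.00 at 5 CPM or more. Over the alternative settings the members' median ran from -0.08 to 0.11 at exponential and from -0.11 to -0.01 at stationary phase, so at exponential phase its sign changed with the cultures used.

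**Figure D2:**
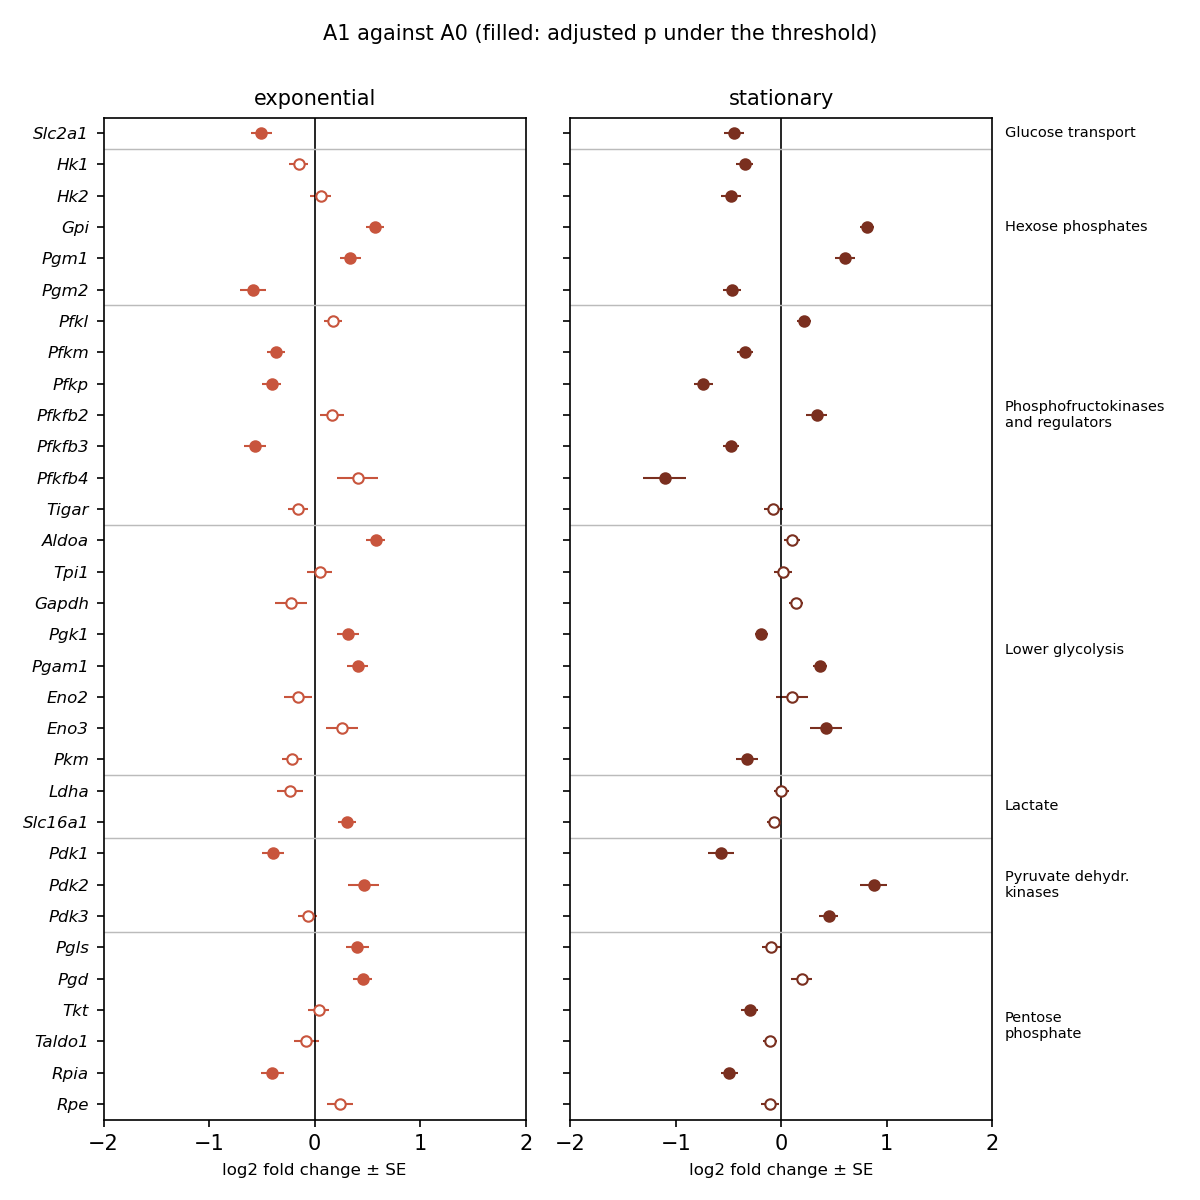
Log2 fold changes of A1 against A0 (horizontal axis, bars are SE) at exponential and stationary phase for the 32 members with at least 5 CPM on average, grouped by role, with filled points past the threshold. Gpi, Pgm1, Pgam1 and Pdk2 lie right of 0 and past the threshold at both phases, and Slc2a1, Pgm2, Pfkm, Pfkp, Pfkfb3, Pdk1 and Rpia lie left of it at both.

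The growth phases were compared within each line. In A0, 15 of 35 members passed, 6 higher and 9 lower at stationary phase, where 37.6% of all genes tested passed, 17.6% higher and 20.004% lower, and 55.1% of those with at least 5 CPM. Slc2a1, Gpi, Pfkl, Tpi1, Gapdh, Pgam1, Pkm, Ldha and Pdk3 fell, and Hk2, Pfkp, Pfkfb4, Pdk1, Pgls and Rpe rose. With total counts as the scale in place of TMM factors, 7 members were higher and 6 lower, beside 37.04% of all genes called. In A1, 20 of 35 members passed, 7 higher and 13 lower, where 33.4% of all genes passed, 15.6% higher and 17.8% lower, and 50.9% of those with at least 5 CPM. Slc2a1, Hk1, Gpi, Pfkl, Aldoa, Tpi1, Gapdh, Pgk1, Pgam1, Pkm, Ldha, Pgd and Tkt fell in A1, and Pfkm, Pfkp, Pfkfb3, Pfkfb4, Eno2, Eno3 and Pdk1 rose. With all 6 groups in 1 fit 7 members passed in A1, beside 11.6% of all genes, and Slc2a1, Gpi, Pfkl, Pfkm, Pfkfb3, Pfkfb4, Aldoa, Tpi1, Pgk1, Pgam1, Eno3, Pkm and Tkt did not. Of the members that fell, 8 were called in both lines, which is 8 of 9 in A0 and 8 of 13 in A1, and over all genes that fell the shares were 55.8% and 68.7%. Of the 11 members called in both A0 and A1, 0 moved in opposite directions by edgeR, beside 3.27% of all genes called in both. The median over the members was -0.09 in A0 and -0.08 in A1, beside 0.00 and 0.03 over all genes. Over the alternative settings it ran from -0.16 to 0.08 in A0, where it was -0.01 without A0 exponential culture 4 and above 0 with the first library of each A0 culture, and from -0.11 to -0.02 in A1. At 5 CPM or more the members' medians were -0.13 and -0.09, nearer to those of all genes at that level (-0.08 and -0.05).

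In CHO-S, 9 of 34 members passed and all were higher at stationary phase, where 13.3% of all genes tested passed, 6.81% higher and 6.48% lower, and 17.9% of those with at least 5 CPM. These were Hk1, Pgm1, Pfkp, Pfkfb3, Pfkfb4, Tpi1, Gapdh, Ldha and Pdk1. By edgeR 15 members were higher and 0 lower at an unadjusted p below 0.05, beside 15.3% higher and 14.1% lower of all genes, and DESeq2 called 12 higher and 0 lower, beside 15.7% of all genes called. Without the shallow library 29 members passed, 22 higher and 7 lower, beside 47.7% of all genes. No share at 5 CPM or more was made without the shallow library, here or below. All 6 groups in 1 fit gave 16 calls and a replicate block gave 4, beside 19.2% and 2.02% of all genes. Leaving out CHO-S exponential replicate 1, 2 or 3 left 2, 0 and 2 calls, beside 1.83%, 0% and 1.66% of all genes. Leaving out CHO-S stationary replicate 2 or 3 left 4 calls each, beside 2.001% and 3.36% of all genes, so calls fell over the whole table. Without CHO-S exponential replicate 2, the case with 0 calls, edgeR gave 12 members higher and 0 lower at an unadjusted p below 0.05, beside 11.2% higher and 9.32% lower of all genes. The members' median was 0.43, and 0.47 without the shallow library, beside 0.02 over all genes and -0.04 over those at 5 CPM or more. It was 0.17 without CHO-S stationary replicate 2, the lowest over the alternative settings, and 0.32 with a replicate block. Pfkp, Pfkfb4 and Pdk1 passed as higher at stationary phase in all 3 lines (3 of 34 members, beside 2.19% of all genes tested in 3 lines). Tpi1, Gapdh and Ldha passed as lower in A0 and in A1 and as higher in CHO-S (3 of 34, beside 0.363%). Both counts were made with the shallow library. Without it 22 members in place of 9 were higher in CHO-S, among them Gpi and Pgam1, which were lower in A0 and A1. The counts over 3 lines, and their shares of all genes, were not remade without it.

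**Figure D3:**
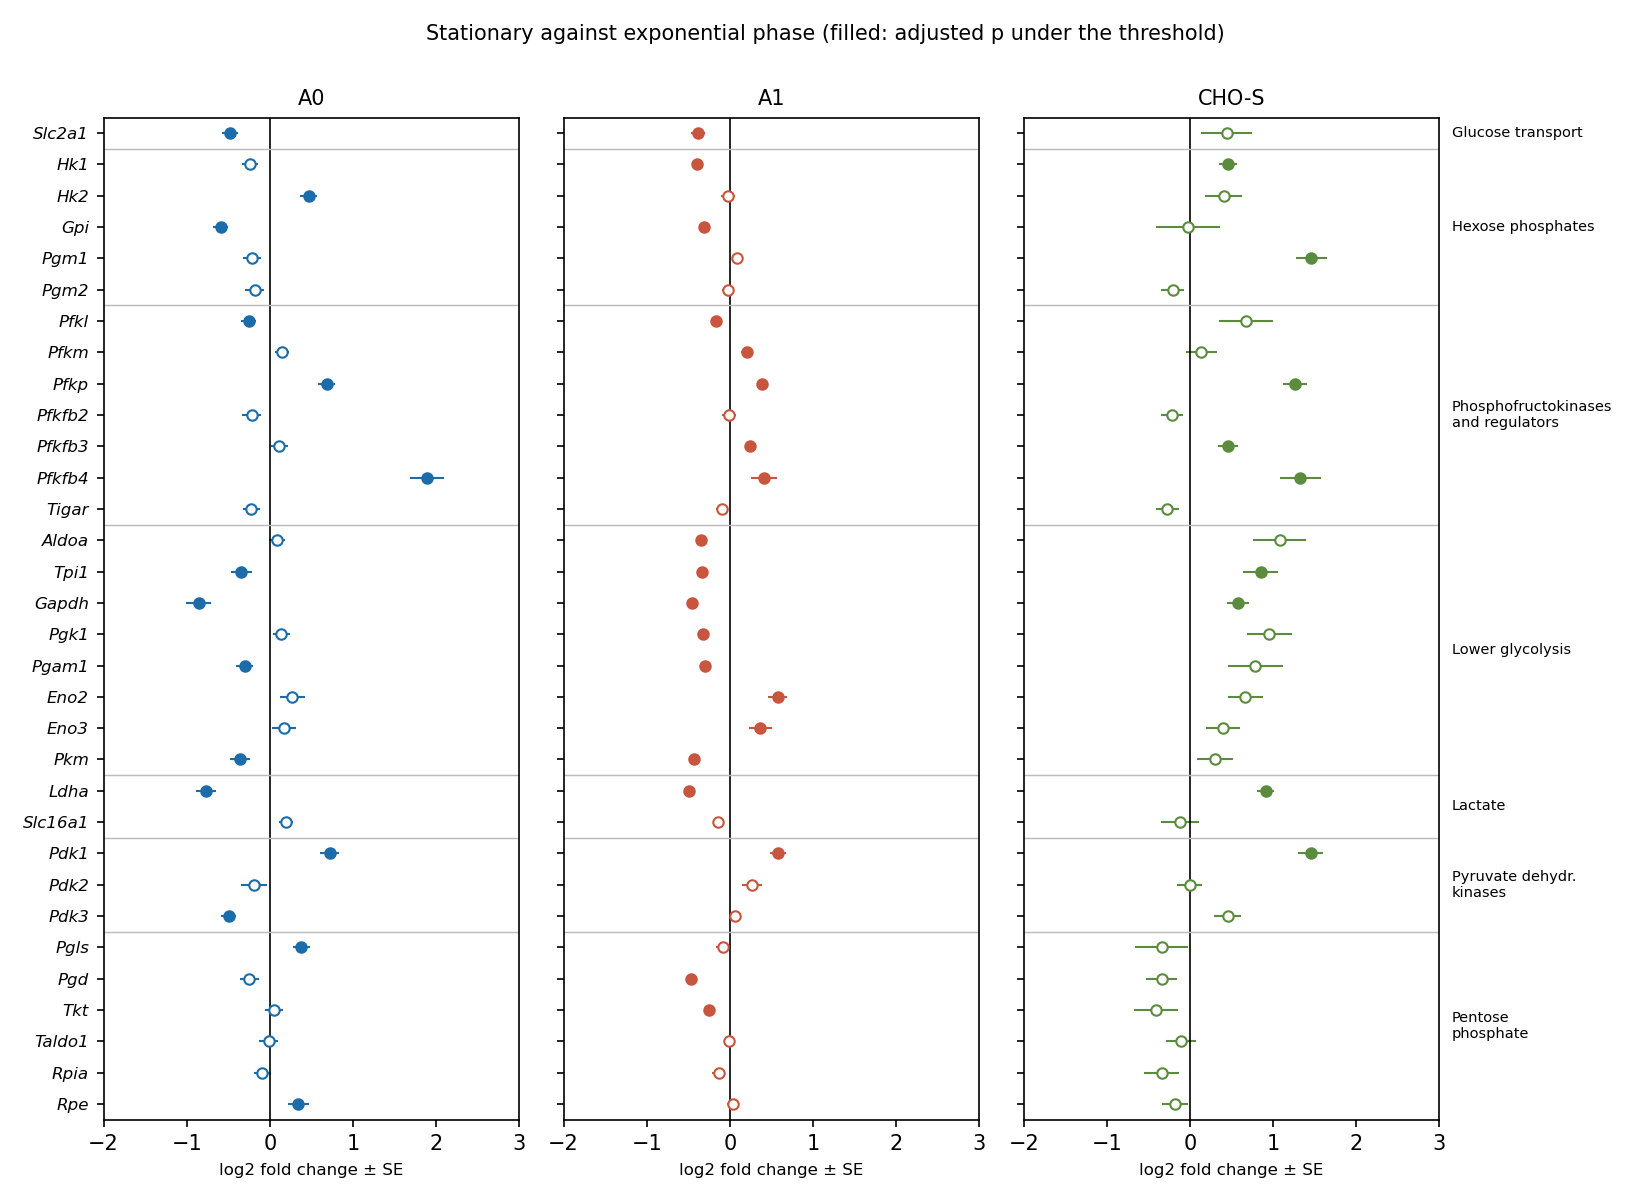
Log2 fold changes of stationary against exponential phase (horizontal axis, bars are SE) in A0, A1 and CHO-S for the 32 members with at least 5 CPM on average, grouped by role, with filled points past the threshold. Gapdh and Ldha lie left of 0 in A0 and A1 and right of it in CHO-S, while Pfkp, Pfkfb4 and Pdk1 lie right of 0 in all 3 lines.

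Whether the change between phases differed between lines was tested directly, as the stationary minus exponential change of a line less that of another. For A1 and A0, 7 of 36 members passed, where 8.92% of all genes tested passed, 5.03% higher and 3.89% lower, and 15.8% of those with at least 5 CPM. Pdk3 was the 1 with the higher change in A1, and Hk2, Pfkfb4, Aldoa, Pgk1, Slc16a1 and Pgls had the lower change in A1. The count was 4 without A1 exponential culture 2, 3 without A1 stationary culture 2 and 10 without A0 exponential culture 4, beside 5.84%, 4.802% and 12.8% of all genes. It was 1 with all 6 groups in 1 fit and 14 with A0 cultures 1 and 2 alone, beside 4.55% and 22.7% of all genes. For CHO-S the 2 differences were added after the values had been seen. Against A0, 11 of 35 members passed and all had the higher change in CHO-S, where 10.3% of all genes passed, 6.55% higher and 3.77% lower. A stricter filter gave 11 of 32 members, beside 17.6% of the genes it kept. At an unadjusted p below 0.05 edgeR gave 14 members higher and 2 lower, beside 14.03% higher and 9.69% lower of all genes, and DESeq2 called 13 higher and 0 lower, beside 14.5% of all genes called. Without the shallow library 18 passed, 15 higher and 3 lower, beside 17.2% of all genes, and leaving out 1 other culture gave 6 to 9 calls, with 6 without A0 stationary culture 2 or 3, any CHO-S exponential culture or CHO-S stationary culture 3 (beside 6.595% to 9.37% of all genes). Against A1, 10 of 35 members passed and all had the higher change in CHO-S, where 7.603% of all genes passed, 3.77% higher and 3.83% lower. The stricter filter gave 10 of 32 members, beside 12.7% of the genes it kept. At an unadjusted p below 0.05 edgeR gave 16 higher and 0 lower, beside 9.699% higher and 10.7% lower of all genes, and DESeq2 called 11 higher and 0 lower, beside 10.3% of all genes called. Without the shallow library 21 passed, 19 higher and 2 lower, beside 25.4% of all genes. Both of these comparisons use the same CHO-S cultures, and no share at 5 CPM or more was made for them.

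Both antibody-producing lines were also set against CHO-S. At exponential phase 21 of 35 members passed for A0, 7 higher and 14 lower than in CHO-S, where 49.2% of all genes passed, 27.4% higher and 21.8% lower, and 65.7% of those with at least 5 CPM. For A1 27 of 34 passed at that phase, 8 higher and 19 lower, where 57.2% of all genes passed, 30.02% higher and 27.1% lower, and 76.2% of those with at least 5 CPM. All 6 groups in 1 fit gave 17 for A1, beside 35.3% of all genes. At stationary phase 18 of 35 passed for A0, 3 higher and 15 lower, where 40.02% of all genes passed, 20.7% higher and 19.3% lower, and 49.3% of those with at least 5 CPM. Without the shallow library 22 passed, 4 higher and 18 lower, beside 51.8% of all genes. For A1 15 of 35 passed at stationary phase, 2 higher and 13 lower, where 34.8% of all genes passed, 18.2% higher and 16.6% lower, and 41.7% of those with at least 5 CPM. Without the shallow library 30 passed, 4 higher and 26 lower, beside 57.4% of all genes, and without A1 stationary culture 1 the count was 10, beside 24.4% of all genes. All 6 groups in 1 fit gave 23 for A1 at stationary phase, beside 38.8% of all genes. The members' median log2 fold change at stationary phase was -0.28 beside 0.08 over all genes (0.00 at 5 CPM or more) for A0 and -0.44 beside 0.06 over all genes (-0.01 at 5 CPM or more) for A1, and -0.34 and -0.48 without the shallow library. Without CHO-S stationary replicate 2 it was -0.10 for A0, and over all alternative settings it ran from -0.35 to -0.10 for A0 and from -0.48 to -0.28 for A1. At exponential phase it was -0.16 beside 0.15 over all genes (0.02 at 5 CPM or more) for A0 and -0.15 beside 0.05 over all genes (-0.01 at 5 CPM or more) for A1, with ranges of -0.24 to -0.11 and -0.19 to -0.09 over the alternative settings. With total counts as the scale the median of all genes at stationary phase moved from 0.08 to 0.19 for A0 and from 0.06 to 0.22 for A1, and fold changes against CHO-S there are relative to that choice.

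Slc2a1 (gene 100753506) encodes the glucose transporter found in most growing cells. At exponential phase Slc2a1 lay at 68.2, 60.5, 54.5 and 58.4 CPM in A0, 39.8, 45.8 and 42.2 CPM in A1 and 34.6, 28.7 and 33.7 CPM in CHO-S. At stationary phase Slc2a1 lay at 45.4, 45.2, 39.2 and 44.9 CPM in A0, 34.3, 29.7 and 33.2 CPM in A1 and 16.5, 57.4 and 46.1 CPM in CHO-S. The exponential cultures fell into the order A0, A1, CHO-S with no overlap, and at stationary phase A1 was again below A0 while the CHO-S cultures spread over both. Slc2a1 was lower in A1 than in A0 at exponential (log2 fold change -0.51 ± 0.10, edgeR adjusted p = 0.00201) and stationary phase (-0.45 ± 0.09, edgeR adjusted p = 0.00195). It was higher in A0 than in CHO-S at exponential phase (log2 fold change 0.91 ± 0.11, edgeR adjusted p = 5.28e-06). From exponential to stationary phase it fell in A0 (log2 fold change -0.48 ± 0.10, edgeR adjusted p = 0.00116) and in A1 (-0.38 ± 0.08, edgeR adjusted p = 0.000489). Its change between phases was more positive in CHO-S than in A0 (difference 0.97 ± 0.28, edgeR adjusted p = 0.0328, and 1.12 without the shallow library) and in A1 (0.93 ± 0.27, edgeR adjusted p = 0.0477, and 1.10 without the shallow library). For Slc2a1 the edgeR call for the phase change in CHO-S and A0 ended without A0 exponential culture 1 or 2, any 1 A0 stationary culture, any 1 CHO-S exponential culture or CHO-S stationary culture 2 or 3 (0.62 to 1.01, adjusted p = 0.0517 to 0.182) and with a replicate block (0.86, adjusted p = 0.0614). For Slc2a1 the edgeR call for the phase change in CHO-S and A1 ended without any 1 culture other than the shallow library (0.64 to 0.94, adjusted p = 0.0936 to 0.203), with DESeq2 in place of edgeR (0.83, adjusted p = 0.114), with total counts as the scale (0.86, adjusted p = 0.0707) and with a replicate block (0.77, adjusted p = 0.309). Slc2a3, the high-affinity transporter best known from neurons, had at most 4 counts in a culture and was at 0 in 13 of 20 cultures, so no difference was detectable at this depth.

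Hk1 (gene 100765413) and Hk2 (gene 100772205) are hexokinases, which trap glucose in the cell as glucose phosphate. At exponential phase Hk1 lay at 285, 299.6, 342 and 291 CPM in A0, 262, 278 and 283 CPM in A1 and 445, 450.0 and 428 CPM in CHO-S. At stationary phase Hk1 lay at 274, 284, 245 and 239 CPM in A0, 206, 195 and 218 CPM in A1 and 586, 641 and 577 CPM in CHO-S. All CHO-S cultures were above all A0 cultures and all A0 cultures above all A1 cultures at both phases. Hk1 was lower in A1 than in A0 at stationary phase (log2 fold change -0.35 ± 0.08, edgeR adjusted p = 0.00384), and at exponential phase the value was -0.15 ± 0.09, edgeR adjusted p = 0.246. Below CHO-S, Hk1 was lower in A0 at exponential (log2 fold change -0.52 ± 0.09, edgeR adjusted p = 0.000141) and stationary phase (-1.22 ± 0.14, edgeR adjusted p = 6.57e-05, and -1.21 without the shallow library), and in A1 at exponential (-0.69 ± 0.04, edgeR adjusted p = 1.81e-12) and stationary phase (-1.56 ± 0.14, edgeR adjusted p = 9.17e-05, and -1.59 without the shallow library). Hk1 fell at stationary phase in A1 (log2 fold change -0.39 ± 0.06, edgeR adjusted p = 2.51e-06) and rose in CHO-S (0.45 ± 0.11, edgeR adjusted p = 0.0343, and 0.47 without the shallow library), with a value of -0.24 ± 0.10, edgeR adjusted p = 0.0674 in A0. The difference of this change between CHO-S and A1 was 0.85 ± 0.13, edgeR adjusted p = 0.00149, and 0.88 without the shallow library, and between CHO-S and A0 it was 0.70 ± 0.17, edgeR adjusted p = 0.0105, and 0.66 without the shallow library. For Hk1 the edgeR call for the phases in CHO-S ended without any 1 culture other than the shallow library (0.41 to 0.48, adjusted p = 0.109 to 0.192) and with a replicate block (0.45, adjusted p = 0.17). For Hk1 the comparison of the phases in A0 passed in edgeR with a replicate block (-0.24, adjusted p = 0.0277), with the first library of each A0 culture (-0.25, adjusted p = 0.0412) and with A0 cultures 3 and 4 alone (-0.39, adjusted p = 0.0451).

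At exponential phase Hk2 lay at 32.3, 36.1, 38.4 and 36.2 CPM in A0, 35.4, 39.2 and 36.97 CPM in A1 and 40.3, 36.3 and 33.9 CPM in CHO-S. At stationary phase Hk2 lay at 52.6, 48.4, 43.8 and 54.5 CPM in A0, 34.98, 37.9 and 35.2 CPM in A1 and 30.96, 63.2 and 45.5 CPM in CHO-S. The 3 lines overlapped at exponential phase, and at stationary phase every A0 culture was above every A1 culture. Hk2 rose at stationary phase in A0 (log2 fold change 0.47 ± 0.10, edgeR adjusted p = 0.00161) and not past the threshold in A1 (-0.02 ± 0.08, edgeR adjusted p = 0.879). The change was lower in A1 than in A0 (difference -0.53 ± 0.14, edgeR adjusted p = 0.0139). For Hk2 the edgeR call for the phase change in A1 and A0 ended without A1 exponential culture 2 (-0.46, adjusted p = 0.0657), with all 6 groups in 1 fit (-0.52, adjusted p = 0.117) and with A0 cultures 3 and 4 alone (-0.44, adjusted p = 0.0527). For Hk2 the edgeR call for the phases in A0 ended with A0 cultures 3 and 4 alone (0.40, adjusted p = 0.0709). At stationary phase Hk2 was lower in A1 than in A0 (log2 fold change -0.48 ± 0.09, edgeR adjusted p = 0.00108).

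Gpi (gene 100689468), glucose phosphate isomerase, makes fructose phosphate at the branch point between glycolysis and the pentose phosphate pathway. At exponential phase Gpi lay at 129, 119, 109 and 115 CPM in A0, 171, 178 and 178 CPM in A1 and 93.3, 92.7 and 90.98 CPM in CHO-S. At stationary phase Gpi lay at 79.7, 81.2, 77.1 and 77.6 CPM in A0, 137, 146 and 136 CPM in A1 and 30.96, 119 and 111 CPM in CHO-S. Every A1 culture was above every A0 culture at both phases, and at stationary phase the shallow library was far below the other CHO-S cultures. Gpi was higher in A1 than in A0 at exponential (log2 fold change 0.57 ± 0.09, edgeR adjusted p = 0.000255) and stationary phase (0.81 ± 0.07, edgeR adjusted p = 9.15e-07), and higher in A1 than in CHO-S at exponential phase (0.92 ± 0.05, edgeR adjusted p = 3.88e-14). It fell at stationary phase in A0 (log2 fold change -0.59 ± 0.09, edgeR adjusted p = 6.53e-05) and in A1 (-0.31 ± 0.06, edgeR adjusted p = 6.96e-05), and in CHO-S the value was -0.02 ± 0.38, edgeR adjusted p = 0.974, and 0.33 without the shallow library at an edgeR adjusted p of 1.5e-07.

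Pgm1 (gene 100753184) and Pgm2 belong to the phosphoglucomutase family, which moves the phosphate of sugar phosphates. At exponential phase Pgm1 lay at 63.9, 68.8, 82.1 and 75.7 CPM in A0, 88.6, 88.7 and 98.3 CPM in A1 and 72.8, 71.5 and 69.5 CPM in CHO-S. At stationary phase Pgm1 lay at 56.9, 57.3, 72.5 and 65.4 CPM in A0, 101, 93.96 and 95.5 CPM in A1 and 148, 243 and 191 CPM in CHO-S. Every A1 culture was above every A0 culture at both phases, and the CHO-S cultures, inside the A0 range at exponential phase, were above all others at stationary phase. Pgm1 was higher in A1 than in A0 at exponential (log2 fold change 0.34 ± 0.10, edgeR adjusted p = 0.0198) and stationary phase (0.60 ± 0.09, edgeR adjusted p = 0.000157). At stationary phase it was lower in A0 than in CHO-S (log2 fold change -1.65 ± 0.18, edgeR adjusted p = 6.06e-05, and -1.77 without the shallow library). Pgm1 rose at stationary phase in CHO-S (log2 fold change 1.46 ± 0.19, edgeR adjusted p = 0.00468, and 1.63 without the shallow library). For Pgm1 the edgeR call for the phases in CHO-S ended without any 1 CHO-S exponential culture (1.45 to 1.47, adjusted p = 0.05001 to 0.0566). For Pgm1 the edgeR call for A1 against A0 at exponential phase ended without A0 exponential culture 2 or any 1 A1 exponential culture (0.29 to 0.36, adjusted p = 0.0578 to 0.126) and with A0 cultures 3 and 4 alone (0.21, adjusted p = 0.0953). The rise was larger than the change in A0 (difference 1.70 ± 0.22, edgeR adjusted p = 4.27e-05, and 1.78 without the shallow library) and in A1 (1.39 ± 0.20, edgeR adjusted p = 0.000828, and 1.55 without the shallow library). Pgm2 lay between 58.8 and 119 CPM over all cultures and was lower in A1 than in A0 at exponential (log2 fold change -0.58 ± 0.12, edgeR adjusted p = 0.00289) and stationary phase (-0.47 ± 0.08, edgeR adjusted p = 0.0005).

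Phosphofructokinase commits sugar to glycolysis, and its subunits are encoded by Pfkl, Pfkm and Pfkp. At exponential phase Pfkp (gene 100751501) lay at 107, 97.1, 117 and 105 CPM in A0, 77.8, 78.8 and 85.2 CPM in A1 and 38.1, 36.3 and 37.4 CPM in CHO-S. At stationary phase Pfkp lay at 185, 193, 162 and 153 CPM in A0, 112, 98.5 and 104 CPM in A1 and 76.4, 102 and 87.3 CPM in CHO-S. The order A0, A1, CHO-S held with no overlap at exponential phase, and at stationary phase A0 was above both other lines. Pfkp was lower in A1 than in A0 at exponential (log2 fold change -0.41 ± 0.09, edgeR adjusted p = 0.00426) and stationary phase (-0.74 ± 0.09, edgeR adjusted p = 3.36e-05). At exponential phase it was above CHO-S in A0 (log2 fold change 1.53 ± 0.09, edgeR adjusted p = 5.96e-09) and in A1 (1.11 ± 0.06, edgeR adjusted p = 1.81e-13). Pfkp rose at stationary phase in A0 (log2 fold change 0.69 ± 0.10, edgeR adjusted p = 5.12e-05), in A1 (0.39 ± 0.07, edgeR adjusted p = 1.66e-05) and in CHO-S (1.27 ± 0.15, edgeR adjusted p = 0.0038, and 1.36 without the shallow library). For Pfkp the edgeR call for the phases in CHO-S ended without CHO-S exponential culture 2 (1.25, adjusted p = 0.0543). The rise in CHO-S was larger than in A1 (difference 0.90 ± 0.15, edgeR adjusted p = 0.003, and 0.99 without the shallow library). Against A0 the difference was 0.60 ± 0.19, edgeR adjusted p = 0.0463, and 0.62 without the shallow library. For Pfkp the edgeR call for the phase change in CHO-S and A0 ended without any 1 culture other than the shallow library (0.43 to 0.64, adjusted p = 0.0561 to 0.192), with total counts as the scale (0.52, adjusted p = 0.0761), without a filter (0.60, adjusted p = 0.0512) and with a replicate block (0.58, adjusted p = 0.0875).

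At exponential phase Pfkl (gene 100762127) lay at 177, 184, 199 and 201 CPM in A0, 214, 219 and 210.3 CPM in A1 and 283, 306 and 304 CPM in CHO-S. At stationary phase Pfkl lay at 153, 164, 156 and 171 CPM in A0, 192, 189.7 and 183 CPM in A1 and 227, 628 and 561 CPM in CHO-S. The order A0, A1, CHO-S ran upwards with no overlap at both phases. Pfkl was lower in A1 than in CHO-S at stationary phase (log2 fold change -1.35 ± 0.32, edgeR adjusted p = 0.0126, and -1.69 without the shallow library). For Pfkl the edgeR call for A1 against CHO-S at stationary phase ended without any 1 A1 stationary culture (-1.34 to -1.36, adjusted p = 0.0558 to 0.0635). Pfkm lay between 51.6 and 86.3 CPM over all cultures and was lower in A1 than in A0 at exponential (log2 fold change -0.36 ± 0.09, edgeR adjusted p = 0.00573) and stationary phase (-0.35 ± 0.08, edgeR adjusted p = 0.00314).

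The Pfkfb genes encode enzymes that make and remove the fructose bisphosphate that switches phosphofructokinase on, and Tigar encodes a phosphatase that removes it. At exponential phase Pfkfb4 (gene 100761571) lay at 3.43, 3.795, 5.33 and 5.35 CPM in A0, 5.81, 5.46 and 6.48 CPM in A1 and 5.79, 4.51 and 5.92 CPM in CHO-S. At stationary phase Pfkfb4 lay at 22.4, 19.2, 13.1 and 12.3 CPM in A0, 8.67, 7.16 and 7.82 CPM in A1 and 3.096, 14.2 and 15.2 CPM in CHO-S. At stationary phase every A0 culture was above every A1 culture, A0 cultures 1 and 2 were the highest of all, and the shallow library was the lowest. Pfkfb4 rose at stationary phase in A0 (log2 fold change 1.89 ± 0.21, edgeR adjusted p = 2.72e-06) and in A1 (0.41 ± 0.16, edgeR adjusted p = 0.0424). The rise was smaller in A1 than in A0 (difference -1.51 ± 0.29, edgeR adjusted p = 0.00203), and at stationary phase Pfkfb4 was lower in A1 than in A0 (-1.10 ± 0.20, edgeR adjusted p = 0.000781). In CHO-S it rose as well (log2 fold change 1.33 ± 0.25, edgeR adjusted p = 0.0157, and 1.42 without the shallow library), although the shallow library was below the exponential cultures. For Pfkfb4 the edgeR call for the phases in CHO-S ended without any 1 culture other than the shallow library (1.15 to 1.37, adjusted p = 0.104 to 0.137) and with a replicate block (1.15, adjusted p = 0.16). For Pfkfb4 the edgeR call for the phases in A1 ended without A1 exponential culture 1 or 2 or A1 stationary culture 1 or 3 (0.35 to 0.41, adjusted p = 0.0899 to 0.133) and with DESeq2 in place of edgeR (0.43, adjusted p = 0.112). With A0 cultures 3 and 4 alone Pfkfb4 kept its calls with smaller sizes, at -0.71 in A1 against A0 at stationary phase, 1.25 between phases in A0 and -0.85 for the difference. Pfkfb3 was lower in A1 than in A0 at exponential (log2 fold change -0.57 ± 0.11, edgeR adjusted p = 0.00116) and stationary phase (-0.48 ± 0.08, edgeR adjusted p = 0.000238), within 91.3 to 171 CPM over all cultures. Pfkfb2 lay between 34.5 and 62.9 CPM over all cultures. Tigar lay between 51.5 and 91.9 CPM and passed neither in A1 against A0 nor between phases in A0 and A1, with log2 fold changes from -0.22 to -0.08.

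The lower part of glycolysis starts with aldolase (Aldoa, gene 100771717) and triose phosphate isomerase (Tpi1, gene 100767338). At exponential phase Aldoa lay at 515, 485, 506 and 579 CPM in A0, 774, 772 and 789 CPM in A1 and 680.1, 685 and 674 CPM in CHO-S. At stationary phase Aldoa lay at 623, 576, 534 and 505 CPM in A0, 589.8, 602 and 621 CPM in A1 and 708, 1906 and 1682 CPM in CHO-S. A1 was the highest line at exponential phase and overlapped A0 at stationary phase, where CHO-S replicates 2 and 3 were far above all other cultures. Aldoa was higher in A1 than in A0 at exponential phase (log2 fold change 0.58 ± 0.09, edgeR adjusted p = 0.000241), with 0.10 ± 0.08, edgeR adjusted p = 0.339 at stationary phase. It fell at stationary phase in A1 (log2 fold change -0.35 ± 0.05, edgeR adjusted p = 1.77e-06), with 0.09 ± 0.10, edgeR adjusted p = 0.511 in A0, and in CHO-S the change was 1.08 ± 0.32, edgeR adjusted p = 0.0669, and 1.40 without the shallow library at an edgeR adjusted p of 1.46e-50. The change was lower in A1 than in A0 (difference -0.48 ± 0.12, edgeR adjusted p = 0.0147). For Aldoa the edgeR call for the phase change in A1 and A0 ended without A1 stationary culture 2 (-0.47, adjusted p = 0.0515), with all 6 groups in 1 fit (-0.47, adjusted p = 0.376) and with A0 cultures 3 and 4 alone (-0.30, adjusted p = 0.0706). The change in CHO-S was above that in A1 (difference 1.44 ± 0.33, edgeR adjusted p = 0.0169, and 1.77 without the shallow library) and in A0 (1.01 ± 0.31, edgeR adjusted p = 0.0416, and 1.27 without the shallow library). For Aldoa the edgeR call for the phase change in CHO-S and A1 ended without A1 exponential culture 3, A1 stationary culture 1 or 2 or any 1 CHO-S exponential culture (1.40 to 1.43, adjusted p = 0.0505 to 0.0525). For Aldoa the edgeR call for the phase change in CHO-S and A0 ended without any 1 culture other than the shallow library (0.70 to 1.06, adjusted p = 0.0544 to 0.142) and with total counts as the scale (0.93, adjusted p = 0.0582). For Aldoa the comparison of the phases in CHO-S passed with DESeq2 in place of edgeR (1.10, adjusted p = 0.0152) and with all 6 groups in 1 fit (1.08, adjusted p = 0.000274).

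At exponential phase Tpi1 lay at 694, 624, 513 and 465 CPM in A0, 589.8, 600.3 and 592 CPM in A1 and 636, 647 and 657 CPM in CHO-S. At stationary phase Tpi1 lay at 531, 461, 429 and 406 CPM in A0, 455, 475 and 465 CPM in A1 and 783, 1449 and 1260.3 CPM in CHO-S. At exponential phase every CHO-S culture was above every A1 culture and A0 overlapped both, and at stationary phase every CHO-S culture was above every A0 and A1 culture. Tpi1 fell at stationary phase in A0 (log2 fold change -0.34 ± 0.13, edgeR adjusted p = 0.0423) and in A1 (-0.33 ± 0.05, edgeR adjusted p = 3.42e-06). In CHO-S it rose (log2 fold change 0.85 ± 0.21, edgeR adjusted p = 0.0373, and 1.07 without the shallow library). For Tpi1 the edgeR call for the phases in CHO-S ended without any 1 culture other than the shallow library (0.67 to 0.87, adjusted p = 0.14 to 0.169) and with a replicate block (0.81, adjusted p = 0.0925). For Tpi1 the edgeR call for the phases in A0 ended without A0 exponential culture 1 or 2 or A0 stationary culture 2, 3 or 4 (-0.23 to -0.35, adjusted p = 0.0742 to 0.151), with DESeq2 in place of edgeR (-0.31, adjusted p = 0.0602), with RLE size factors (-0.31, adjusted p = 0.0643), with total counts as the scale (-0.28, adjusted p = 0.0771), with a stricter filter (-0.30, adjusted p = 0.0767), with all 6 groups in 1 fit (-0.33, adjusted p = 0.0736), with the first library of each A0 culture (-0.27, adjusted p = 0.06) and with A0 cultures 3 and 4 alone (-0.23, adjusted p = 0.124). The change in CHO-S differed from that in A0 (difference 1.21 ± 0.26, edgeR adjusted p = 0.00443, and 1.36 without the shallow library) and in A1 (1.20 ± 0.22, edgeR adjusted p = 0.00449, and 1.42 without the shallow library).

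Gapdh makes the NADH of glycolysis, at the triose phosphate step. Gapdh fell at stationary phase in A0 (log2 fold change -0.86 ± 0.15, edgeR adjusted p = 0.000193) and in A1 (-0.46 ± 0.05, edgeR adjusted p = 2.97e-09), and the exponential and stationary cultures did not overlap in either line. With A0 cultures 3 and 4 alone the A0 value was -0.72 ± 0.23, edgeR adjusted p = 0.0725. In CHO-S Gapdh rose (log2 fold change 0.58 ± 0.13, edgeR adjusted p = 0.0268, and 0.69 without the shallow library), and all stationary cultures were above all exponential ones. For Gapdh the edgeR call for the phases in CHO-S ended without any 1 culture other than the shallow library (0.43 to 0.62, adjusted p = 0.11 to 0.187) and with a replicate block (0.57, adjusted p = 0.111). The change in CHO-S was above that in A0 (difference 1.45 ± 0.24, edgeR adjusted p = 0.000453, and 1.498 without the shallow library) and in A1 (1.04 ± 0.14, edgeR adjusted p = 0.000476, and 1.16 without the shallow library). The difference of the change between A1 and A0 did not pass (difference 0.36 ± 0.18, edgeR adjusted p = 0.251). For Gapdh the comparison of the phase change in A1 and A0 passed in edgeR without A0 exponential culture 4 (0.52, adjusted p = 0.00173), with a replicate block (0.33, adjusted p = 0.00657) and with A0 cultures 1 and 2 alone (0.46, adjusted p = 0.000376).

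Phosphoglycerate kinase (Pgk1, gene 100689467) then yields ATP, and phosphoglycerate mutase (Pgam1, gene 100766080) shifts the phosphate. At exponential phase Pgk1 lay at 428, 354, 318 and 412 CPM in A0, 466, 487 and 459 CPM in A1 and 446, 438 and 444 CPM in CHO-S. At stationary phase Pgk1 lay at 426, 393, 441 and 416 CPM in A0, 365, 369 and 377 CPM in A1 and 483, 1135 and 952 CPM in CHO-S. A1 was above A0 at exponential phase and below it at stationary phase, with no overlap at either. Pgk1 was higher in A1 than in A0 at exponential phase (log2 fold change 0.31 ± 0.11, edgeR adjusted p = 0.0385) and lower at stationary phase (-0.19 ± 0.06, edgeR adjusted p = 0.0367). It fell at stationary phase in A1 (log2 fold change -0.33 ± 0.05, edgeR adjusted p = 8.33e-06), with 0.14 ± 0.10, edgeR adjusted p = 0.335 in A0. The difference between A1 and A0 in this change was -0.50 ± 0.13, edgeR adjusted p = 0.0155. For Pgk1 the edgeR call for the phase change in A1 and A0 ended without A1 exponential culture 2 or A1 stationary culture 2 (-0.44 to -0.49, adjusted p = 0.0524 to 0.0722) and with all 6 groups in 1 fit (-0.49, adjusted p = 0.278). For Pgk1 the edgeR call for A1 against A0 at exponential phase ended without A0 exponential culture 2 or 3 or any 1 A1 exponential culture (0.24 to 0.33, adjusted p = 0.0861 to 0.17). For Pgk1 the edgeR call for A1 against A0 at stationary phase ended without A0 stationary culture 1 or 3 or any 1 A1 stationary culture (-0.16 to -0.21, adjusted p = 0.0505 to 0.129) and with total counts as the scale (-0.13, adjusted p = 0.152). The change in CHO-S was above that in A1 (difference 1.30 ± 0.29, edgeR adjusted p = 0.0138, and 1.59 without the shallow library).

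At exponential phase Pgam1 lay at 361, 323, 278 and 359 CPM in A0, 442, 432 and 442 CPM in A1 and 701, 697 and 667 CPM in CHO-S. At stationary phase Pgam1 lay at 290.4, 266, 252 and 272 CPM in A0, 347, 365 and 340.3 CPM in A1 and 562, 1594 and 1394 CPM in CHO-S. The order A0, A1, CHO-S ran upwards with no overlap at both phases. Pgam1 was higher in A1 than in A0 at exponential (log2 fold change 0.41 ± 0.10, edgeR adjusted p = 0.00709) and stationary phase (0.37 ± 0.07, edgeR adjusted p = 0.00069). It was lower in A0 than in CHO-S at exponential (log2 fold change -1.05 ± 0.10, edgeR adjusted p = 5.03e-07) and stationary phase (-2.15 ± 0.29, edgeR adjusted p = 0.000209, and -2.45 without the shallow library), and in A1 at stationary phase (-1.77 ± 0.33, edgeR adjusted p = 0.00406, and -2.12 without the shallow library). Pgam1 fell at stationary phase in A0 (log2 fold change -0.30 ± 0.10, edgeR adjusted p = 0.0271) and in A1 (-0.30 ± 0.05, edgeR adjusted p = 2.5e-05), with 0.79 ± 0.33, edgeR adjusted p = 0.164, and 1.12 without the shallow library at an edgeR adjusted p of 1.12e-42 in CHO-S. The change in CHO-S was above that in A0 (difference 1.11 ± 0.32, edgeR adjusted p = 0.0319, and 1.38 without the shallow library). For Pgam1 the edgeR call for the phase change in CHO-S and A0 ended without A0 exponential culture 1, 2 or 4, A0 stationary culture 2, 3 or 4, any 1 CHO-S exponential culture or CHO-S stationary culture 2 or 3 (0.79 to 1.12, adjusted p = 0.0514 to 0.108). For Pgam1 the edgeR call for the phases in A0 ended without A0 exponential culture 1 or 4 or A0 stationary culture 2, 3 or 4 (-0.25 to -0.31, adjusted p = 0.0508 to 0.0857), with total counts as the scale (-0.24, adjusted p = 0.0739), with all 6 groups in 1 fit (-0.29, adjusted p = 0.226) and with A0 cultures 3 and 4 alone (-0.28, adjusted p = 0.19).

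Enolases form the last high-energy phosphate of the pathway, and of their genes Eno2 (gene 100758414) and Eno3 (gene 100771169) were measured. At exponential phase Eno2 lay at 14.2, 14.3, 13.3 and 17.5 CPM in A0, 14.8, 11.9 and 13.2 CPM in A1 and 37.8, 31.7 and 38.7 CPM in CHO-S. At stationary phase Eno2 lay at 16.1, 14.7, 23.4 and 17.99 CPM in A0, 17.5, 18.8 and 21.97 CPM in A1 and 39.2, 71.8 and 54.5 CPM in CHO-S. All CHO-S cultures were above all A0 and A1 cultures at both phases, and A0 and A1 overlapped. Compared with CHO-S, Eno2 was lower in A0 at exponential (log2 fold change -1.27 ± 0.12, edgeR adjusted p = 4.36e-07) and stationary phase (-1.68 ± 0.21, edgeR adjusted p = 0.000162, and -1.80 without the shallow library), and in A1 at exponential (-1.45 ± 0.10, edgeR adjusted p = 6.76e-12) and stationary phase (-1.57 ± 0.22, edgeR adjusted p = 0.000951, and -1.73 without the shallow library). It rose at stationary phase in A1 (log2 fold change 0.58 ± 0.12, edgeR adjusted p = 0.000213). At exponential phase Eno3 lay at 7.54, 7.67, 5.94 and 7.39 CPM in A0, 8.51, 7.85 and 9.300 CPM in A1 and 3.79, 4.01 and 4.48 CPM in CHO-S, low levels at which counting error weighs more. At stationary phase Eno3 lay at 8.096, 9.58, 7.64 and 7.12 CPM in A0, 12.4, 9.75 and 10.99 CPM in A1 and 2.06, 5.94 and 5.15 CPM in CHO-S. CHO-S was the lowest line at both phases with no overlap, and A1 was above A0. Eno3 was higher in A1 than in CHO-S at exponential phase (log2 fold change 1.06 ± 0.15, edgeR adjusted p = 1.3e-06) and higher in A1 than in A0 at stationary phase (0.42 ± 0.15, edgeR adjusted p = 0.0423). For Eno3 the edgeR call for A1 against A0 at stationary phase ended without A0 stationary culture 1, 3 or 4 or A1 stationary culture 1 or 3 (0.35 to 0.42, adjusted p = 0.0623 to 0.152), with DESeq2 in place of edgeR (0.43, adjusted p = 0.0601) and with A0 cultures 1 and 2 alone (0.28, adjusted p = 0.172).

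Pyruvate kinase (Pkm, gene 100751347) makes pyruvate. At exponential phase Pkm lay at 3378, 3242, 3133 and 2847 CPM in A0, 2716, 2717 and 2720.4 CPM in A1 and 3026, 3058 and 3013 CPM in CHO-S. At stationary phase Pkm lay at 2907, 2760.0, 2162 and 2080.1 CPM in A0, 1848, 2153 and 1980.0 CPM in A1 and 2429, 4664 and 4099 CPM in CHO-S. All A1 cultures were below all A0 cultures at exponential phase, the 2 lines overlapped at stationary phase, and the shallow library was the lowest CHO-S culture. Pkm fell at stationary phase in A1 (log2 fold change -0.43 ± 0.05, edgeR adjusted p = 5.43e-08), and in A0 (-0.36 ± 0.12, edgeR adjusted p = 0.0241), where the phases overlapped. For Pkm the edgeR call for the phases in A0 ended without A0 exponential culture 1 or 2 or A0 stationary culture 3 or 4 (-0.28 to -0.35, adjusted p = 0.0606 to 0.0854), with all 6 groups in 1 fit (-0.35, adjusted p = 0.0564) and with the first library of each A0 culture (-0.28, adjusted p = 0.0586). At stationary phase Pkm was lower in A1 than in A0 (log2 fold change -0.32 ± 0.11, edgeR adjusted p = 0.0315), and at exponential phase the value was -0.21 ± 0.09, edgeR adjusted p = 0.0962. For Pkm the edgeR call for A1 against A0 at stationary phase ended without A0 stationary culture 1 or 2 or any 1 A1 stationary culture (-0.24 to -0.38, adjusted p = 0.0538 to 0.157), with total counts as the scale (-0.26, adjusted p = 0.0591) and with A0 cultures 3 and 4 alone (-0.09, adjusted p = 0.265). For Pkm the comparison of A1 against A0 at exponential phase passed in edgeR without A0 exponential culture 4 (-0.26, adjusted p = 0.0113) and with A0 cultures 1 and 2 alone (-0.29, adjusted p = 0.0027). Aldoc, an aldolase best known from brain, had at most 7 counts in a culture, too few to detect a difference.

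Lactate dehydrogenase turns pyruvate into lactate, and Ldha (gene 100689064) encodes its main subunit in growing cells. At exponential phase Ldha lay at 1514, 1427, 1166 and 1039.8 CPM in A0, 1082, 1143 and 1063 CPM in A1 and 1433, 1394 and 1438 CPM in CHO-S. At stationary phase Ldha lay at 842, 750.2, 709 and 741 CPM in A0, 732, 806 and 764 CPM in A1 and 2414, 2924 and 2655 CPM in CHO-S. At exponential phase every CHO-S culture was above every A1 culture and A0 overlapped both, and at stationary phase every CHO-S culture was above every A0 and A1 culture. Ldha fell at stationary phase in A0 (log2 fold change -0.77 ± 0.12, edgeR adjusted p = 7.91e-05) and in A1 (-0.50 ± 0.05, edgeR adjusted p = 4.46e-09), with no overlap of phases in either. In CHO-S it rose (log2 fold change 0.91 ± 0.10, edgeR adjusted p = 0.00369, and 0.98 without the shallow library). For Ldha the edgeR call for the phases in CHO-S ended without any 1 CHO-S exponential culture (0.90 to 0.93, adjusted p = 0.0572 to 0.0664). The change in CHO-S was above that in A0 (difference 1.69 ± 0.19, edgeR adjusted p = 1.16e-05, and 1.70 without the shallow library) and in A1 (1.41 ± 0.12, edgeR adjusted p = 1.9e-05, and 1.49 without the shallow library). At stationary phase Ldha was below CHO-S in A0 (log2 fold change -1.82 ± 0.13, edgeR adjusted p = 3.35e-06, and -1.86 without the shallow library) and in A1 (-1.82 ± 0.13, edgeR adjusted p = 3.01e-05, and -1.89 without the shallow library), and A1 differed from A0 by 0.00 ± 0.07, edgeR adjusted p = 0.988. Ldhb, the subunit typical of heart, had at most 4 counts in a culture and was at 0 in 17 of 20.

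Slc16a1 (gene 100775004) and Slc16a3 encode transporters that carry lactate across the plasma membrane. At exponential phase Slc16a1 lay at 233, 239.6, 225 and 232 CPM in A0, 274, 318 and 271 CPM in A1 and 434, 424 and 414 CPM in CHO-S. At stationary phase Slc16a1 lay at 281, 267, 256 and 269 CPM in A0, 269, 252 and 253 CPM in A1 and 541, 322 and 310.1 CPM in CHO-S. At exponential phase the order A0, A1, CHO-S ran upwards with no overlap, and at stationary phase A0 and A1 overlapped below CHO-S, whose highest culture was the shallow library. Slc16a1 was higher in A1 than in A0 at exponential phase (log2 fold change 0.30 ± 0.09, edgeR adjusted p = 0.0179), with -0.07 ± 0.07, edgeR adjusted p = 0.468 at stationary phase. The difference of the change between phases was -0.37 ± 0.11, edgeR adjusted p = 0.0372 for A1 and A0. For Slc16a1 the edgeR call for the phase change in A1 and A0 ended without A0 exponential culture 3, A0 stationary culture 1 or 2, any 1 A1 exponential culture or A1 stationary culture 2 or 3 (-0.26 to -0.41, adjusted p = 0.0503 to 0.204), with total counts as the scale (-0.33, adjusted p = 0.0625), without a filter (-0.34, adjusted p = 0.0709) and with all 6 groups in 1 fit (-0.36, adjusted p = 0.337). For Slc16a1 the edgeR call for A1 against A0 at exponential phase ended without A1 exponential culture 2 (0.21, adjusted p = 0.162). Slc16a3 had at most 11 counts in a culture, and although it passed as higher in A1 at stationary phase (log2 fold change 2.82 ± 0.87, edgeR adjusted p = 0.0214), 1 A1 culture was at the level of the A0 cultures. For Slc16a3 the edgeR call for A1 against A0 at stationary phase ended without A1 stationary culture 1 or 2 (1.96 to 2.77, adjusted p = 0.0585 to 0.214) and with A0 cultures 3 and 4 alone (2.55, adjusted p = 0.0582).

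Pyruvate dehydrogenase kinases switch off the entry of pyruvate into the mitochondrial citric acid cycle. At exponential phase Pdk1 (gene 100774056) lay at 28.4, 27.9, 34.3 and 32.6 CPM in A0, 22.8, 23.4 and 24.1 CPM in A1 and 11.9, 13.3 and 13.8 CPM in CHO-S. At stationary phase Pdk1 lay at 43.6, 48.2, 51.9 and 60.7 CPM in A0, 40.2, 31.6 and 33.04 CPM in A1 and 24.8, 40.7 and 34.01 CPM in CHO-S. A0 was the highest line at both phases, with no overlap with A1 or CHO-S. Pdk1 was lower in A1 than in A0 at exponential (log2 fold change -0.39 ± 0.11, edgeR adjusted p = 0.0127) and stationary phase (-0.57 ± 0.12, edgeR adjusted p = 0.00194), and higher in A0 than in CHO-S at exponential phase (1.25 ± 0.12, edgeR adjusted p = 4.7e-07). It rose at stationary phase in A0 (log2 fold change 0.72 ± 0.12, edgeR adjusted p = 0.000121), in A1 (0.58 ± 0.09, edgeR adjusted p = 1.25e-05) and in CHO-S (1.45 ± 0.15, edgeR adjusted p = 0.00307, and 1.55 without the shallow library). For Pdk1 the edgeR call for the phases in CHO-S ended without CHO-S exponential culture 2 (1.43, adjusted p = 0.0552). For Pdk1 the edgeR call for A1 against A0 at exponential phase ended without A1 exponential culture 1 (-0.38, adjusted p = 0.0647) and with the first library of each A0 culture (-0.26, adjusted p = 0.12). The rise was larger in CHO-S than in A0 (difference 0.74 ± 0.22, edgeR adjusted p = 0.0345, and 0.77 without the shallow library). For Pdk1 the edgeR call for the phase change in CHO-S and A0 ended without A0 exponential culture 3, A0 stationary culture 1, 2 or 3, any 1 CHO-S exponential culture or CHO-S stationary culture 2 or 3 (0.51 to 0.78, adjusted p = 0.0546 to 0.184) and with total counts as the scale (0.66, adjusted p = 0.0648). It was also larger than in A1 (difference 0.90 ± 0.18, edgeR adjusted p = 0.00794, and 0.99 without the shallow library). For Pdk1 the edgeR call for the phase change in CHO-S and A1 ended with a replicate block (0.80, adjusted p = 0.0724).

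At exponential phase Pdk2 (gene 100758762) lay at 8.43, 8.67, 9.22 and 6.33 CPM in A0, 11.9, 10.9 and 10.98 CPM in A1 and 15.3, 18.4 and 19.7 CPM in CHO-S. At stationary phase Pdk2 lay at 7.63, 7.56, 7.09 and 6.59 CPM in A0, 12.5, 13.4 and 13.9 CPM in A1 and 12.4, 17.7 and 19.2 CPM in CHO-S. Every A1 culture was above every A0 culture at both phases, and every CHO-S culture was above every A0 culture. Pdk2 was higher in A1 than in A0 at exponential (log2 fold change 0.46 ± 0.15, edgeR adjusted p = 0.0312) and stationary phase (0.87 ± 0.13, edgeR adjusted p = 0.000117). It was lower in A0 than in CHO-S at exponential phase (log2 fold change -1.11 ± 0.14, edgeR adjusted p = 1.49e-05). For Pdk2 the edgeR call for A1 against A0 at exponential phase ended without any 1 A1 exponential culture (0.42 to 0.48, adjusted p = 0.0869 to 0.127), with the first library of each A0 culture (0.40, adjusted p = 0.0524) and with A0 cultures 3 and 4 alone (0.53, adjusted p = 0.0554).

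At exponential phase Pdk3 (gene 100770270) lay at 71.5, 72.2, 73.2 and 78.9 CPM in A0, 65.5, 75.1 and 71.3 CPM in A1 and 126, 124 and 114 CPM in CHO-S. At stationary phase Pdk3 lay at 49.7, 48.4, 57.4 and 55.8 CPM in A0, 77.5, 67.5 and 73.5 CPM in A1 and 200.2, 155 and 145 CPM in CHO-S. A0 and A1 overlapped at exponential phase, and at stationary phase the order A0, A1, CHO-S ran upwards with no overlap. Pdk3 fell at stationary phase in A0 (log2 fold change -0.50 ± 0.09, edgeR adjusted p = 0.000503), with 0.06 ± 0.07, edgeR adjusted p = 0.598 in A1. The difference between A1 and A0 was 0.52 ± 0.13, edgeR adjusted p = 0.0105. For Pdk3 the edgeR call for the phase change in A1 and A0 ended with all 6 groups in 1 fit (0.53, adjusted p = 0.0508). The change in CHO-S was above that in A0 (difference 0.94 ± 0.17, edgeR adjusted p = 0.00136, and 0.76 without the shallow library), and at stationary phase Pdk3 was lower in A0 than in CHO-S (-1.66 ± 0.16, edgeR adjusted p = 2.26e-05, and -1.49 without the shallow library).

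In the pentose phosphate pathway, Pgls (gene 100774660) encodes the lactonase and Pgd (gene 100765199) the dehydrogenase of the oxidative branch that makes NADPH. At exponential phase Pgls lay at 24.9, 22.8, 22.8 and 26.4 CPM in A0, 31.7, 29.3 and 35.3 CPM in A1 and 38.2, 39.1 and 39.6 CPM in CHO-S. At stationary phase Pgls lay at 34.6, 31.5, 32.1 and 28.7 CPM in A0, 30.1, 30.04 and 29.7 CPM in A1 and 8.26, 39.3 and 32.7 CPM in CHO-S. At exponential phase the order A0, A1, CHO-S ran upwards with no overlap, at stationary phase A0 and A1 overlapped, and the shallow library was the lowest culture of all. Pgls was higher in A1 than in A0 at exponential phase (log2 fold change 0.41 ± 0.11, edgeR adjusted p = 0.0105), with -0.09 ± 0.09, edgeR adjusted p = 0.486 at stationary phase. It rose at stationary phase in A0 (log2 fold change 0.38 ± 0.10, edgeR adjusted p = 0.0081), and the difference of the change between A1 and A0 was -0.50 ± 0.14, edgeR adjusted p = 0.0288. For Pgls the edgeR call for the phase change in A1 and A0 ended without A0 exponential culture 2, A0 stationary culture 1, A1 exponential culture 1 or 3 or any 1 A1 stationary culture (-0.42 to -0.51, adjusted p = 0.0544 to 0.113), with all 6 groups in 1 fit (-0.49, adjusted p = 0.266) and with A0 cultures 3 and 4 alone (-0.41, adjusted p = 0.105). For Pgls the edgeR call for A1 against A0 at exponential phase ended without A1 exponential culture 3 (0.33, adjusted p = 0.089). For Pgls the edgeR call for the phases in A0 ended with A0 cultures 3 and 4 alone (0.31, adjusted p = 0.124).

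At exponential phase Pgd lay at 438, 424, 463 and 505 CPM in A0, 633, 595 and 655 CPM in A1 and 576, 601 and 591 CPM in CHO-S. At stationary phase Pgd lay at 350.1, 321, 448 and 433 CPM in A0, 430.1, 459 and 452 CPM in A1 and 329, 535 and 528 CPM in CHO-S. A1 was above A0 at exponential phase with no overlap, and the phases did not overlap in A1. Pgd was higher in A1 than in A0 at exponential phase (log2 fold change 0.45 ± 0.09, edgeR adjusted p = 0.00174) and fell at stationary phase in A1 (-0.47 ± 0.05, edgeR adjusted p = 2.74e-08).

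The non-oxidative branch holds ribose phosphate isomerase (Rpia, gene 100765051), ribulose phosphate epimerase (Rpe, gene 100756130), transketolase (Tkt) and transaldolase (Taldo1). At exponential phase Rpia lay at 67.1, 62.1, 52.7 and 71.6 CPM in A0, 46.3, 48.2 and 49.4 CPM in A1 and 84.4, 85.2 and 88.2 CPM in CHO-S. At stationary phase Rpia lay at 63.2, 57.6, 59.2 and 60.2 CPM in A0, 40.2, 46.1 and 42.4 CPM in A1 and 43.3, 75.8 and 78.2 CPM in CHO-S. Every A1 culture was below every A0 culture at both phases, and at exponential phase CHO-S was above both. Rpia was lower in A1 than in A0 at exponential (log2 fold change -0.40 ± 0.11, edgeR adjusted p = 0.0127) and stationary phase (-0.49 ± 0.08, edgeR adjusted p = 0.000262), and lower in A1 than in CHO-S at exponential phase (-0.85 ± 0.06, edgeR adjusted p = 5.42e-12). For Rpia the edgeR call for A1 against A0 at exponential phase ended without A1 exponential culture 1 or 3 (-0.38 to -0.43, adjusted p = 0.0524 to 0.0691) and with A0 cultures 3 and 4 alone (-0.38, adjusted p = 0.0542). At exponential phase Rpe lay at 45.6, 42.5, 46.6 and 63.7 CPM in A0, 57.2, 59.2 and 59.4 CPM in A1 and 31.4, 29.3 and 28.7 CPM in CHO-S. At stationary phase Rpe lay at 65.2, 54.2, 65.2 and 68.7 CPM in A0, 62.6, 56.2 and 59.3 CPM in A1 and 36.1, 23.7 and 25.3 CPM in CHO-S. All CHO-S cultures were below all A0 and A1 cultures at both phases. Above CHO-S, Rpe was higher in A1 at exponential phase (log2 fold change 0.97 ± 0.06, edgeR adjusted p = 6.26e-12) and in A0 at exponential (0.74 ± 0.13, edgeR adjusted p = 0.000242) and stationary phase (1.22 ± 0.18, edgeR adjusted p = 0.000429, and 1.39 without the shallow library). Tkt lay between 425 and 1029 CPM over all cultures, with the shallow library lowest. Taldo1 lay between 124 and 211 CPM over all cultures.

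A further list of 53 genes of glucose, lactate and pyruvate handling was described beside the members, and 50 of them were in the counts table. In A1 against A0 7 higher and 9 lower of 41 tested passed at exponential phase and 6 higher and 7 lower of 39 at stationary phase, beside 25.7% and 33.7% of all genes. Between phases the calls were 9 higher and 13 lower of 42 in A0 and 8 higher and 8 lower of 37 in A1, beside 37.6% and 33.4% of all genes. In CHO-S they were 4 higher and 2 lower of 37 (12 higher and 10 lower without the shallow library), beside 13.3% and 47.7%. Against CHO-S at exponential phase they were 11 higher and 10 lower of 41 for A0 and 12 higher and 13 lower of 38 for A1, beside 49.2% and 57.2%. At stationary phase they were 9 higher and 13 lower of 38 for A0 (11 higher and 14 lower without the shallow library), beside 40.02% and 51.8%, and 7 higher and 8 lower of 37 for A1 (11 higher and 17 lower without it), beside 34.8% and 57.4%. For the difference of the phase change the calls were 1 higher and 3 lower of 42 between A1 and A0, beside 8.92% of all genes. Between CHO-S and A0 they were 5 higher and 2 lower of 42 (6 higher and 4 lower without the shallow library), beside 10.3% and 17.2%, and between CHO-S and A1 2 higher and 2 lower of 39 (9 higher and 4 lower without it), beside 7.603% and 25.4%.

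Mpc1, a subunit of the mitochondrial pyruvate carrier, lay at 13.2, 10.5, 10.3 and 10.02 CPM in A0 and 20.04, 20.2 and 17.8 CPM in A1 at exponential phase and at 13.9, 14.2, 10.7 and 10.3 CPM and 24.3, 24.4 and 27.6 CPM at stationary phase. Every A1 culture was above every A0 culture. Mpc1 was higher in A1 at exponential (log2 fold change 0.81 ± 0.13, edgeR adjusted p = 0.000354) and stationary phase (1.05 ± 0.13, edgeR adjusted p = 3.74e-05). Pdk4, a further pyruvate dehydrogenase kinase, lay at 29.7, 32.02, 31.8 and 27.95 CPM in A0 and 63.6, 56.4 and 65.1 CPM in A1 at stationary phase, with no overlap (log2 fold change 1.01 ± 0.09, edgeR adjusted p = 1.69e-06). Galm, an aldose mutarotase, lay at 30.1, 31.9, 42.1 and 52.7 CPM in A0 and 72.3, 65.04 and 72.6 CPM in A1 at exponential phase, with no overlap (log2 fold change 0.84 ± 0.15, edgeR adjusted p = 0.000989). Slc2a8, a glucose transporter of inner membranes, lay at 4.46, 5.39, 3.98 and 5.65 CPM in A0 and 6.63, 8.54 and 10.1 CPM in A1 at exponential phase, also without overlap (log2 fold change 0.79 ± 0.18, edgeR adjusted p = 0.0048). For Slc2a8 the edgeR call for A1 against A0 at exponential phase ended without A1 exponential culture 3 (0.63, adjusted p = 0.0574).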

How the data were processed

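The deposited table holds read counts per gene from the authors, who aligned reads with STAR 2.5.4b and counted them with HTSeq 0.7.2 on C_griseus_v1.0. Its 5 summary lines were left out, and the 2 libraries of each A0 exponential culture were summed. Genes seen (1 count or more) in 2 or more libraries of a comparison, with counts that varied, were kept, and all of them were fitted with edgeR 4.0.16 (TMM factors, quasi-likelihood, R 4.3.3), with Benjamini-Hochberg adjustment over all genes and a threshold of 0.05. CPM use TMM factors over the 20 cultures. DESeq2 1.42.0, other scales, filters and samples were tried as alternatives, and the fits were run on simulated data first. Tables and plots used Python 3.11.15.

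Genes with values in each culture were the largest that passed without overlap between 2 groups, by fixed rules, or all that passed for a difference of phase changes, where overlap was not checked, with Gapdh added. The lists and rules were chosen with earlier results of these data known, and the 2 differences that involve CHO-S were added after the values were seen. Same-numbered A0 cultures of the 2 phases correlated at r = 0.436, 0.32, 0.274 and 0.189 over 10588 genes, and culture number was tried as a replicate block. The values were -0.146, -0.135 and 0.186 in A1 and 0.124, 0.12 and -0.00738 in CHO-S. Between lines at the same phase they ran from -0.195 to 0.0848. Some genes looked at are not reported here.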

Additional observations from a re-analysis of the deposited data

Results flagged for a closer look

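Among the A0 cultures, a single culture stood apart from the other 3 by Dixon's ratio of gap to range in 4 of 64 groups, where chance gives about 1 in 20. These were Slc2a1 at stationary phase (0.916, culture 3 lowest), Pfkfb3 at exponential phase (0.939, culture 4 lowest) and at stationary phase (0.854, culture 1 highest), and Eno3 at exponential phase (0.836, culture 3 lowest).

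The change between phases differed between A1 and A0 for Hk2 (-0.53), Pfkfb4 (-1.51), Aldoa (-0.48), Pgk1 (-0.50), Slc16a1 (-0.37), Pdk3 (0.52) and Pgls (-0.50), in log2 units of A1 less A0. Against A0 the change in CHO-S was higher for Slc2a1 (0.97), Hk1 (0.70), Pgm1 (1.70), Pfkp (0.60), Aldoa (1.01), Tpi1 (1.21), Gapdh (1.45), Pgam1 (1.11), Ldha (1.69), Pdk1 (0.74) and Pdk3 (0.94). Against A1 it was higher for Slc2a1 (0.93), Hk1 (0.85), Pgm1 (1.39), Pfkp (0.90), Aldoa (1.44), Tpi1 (1.20), Gapdh (1.04), Pgk1 (1.30), Ldha (1.41) and Pdk1 (0.90). With all 6 groups in 1 fit, 1 of the 7 differences of A1 and A0 still passed (Pfkfb4). The differences that involve CHO-S share its cultures, and the shallow library is 1 of the 3 stationary ones. What lies behind the differences was not tested.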

How the results depend on the processing

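Of 200 counts of called members under alternative settings, 170 were within 1.5 times the value given and 30 were outside. For the 80 fold changes selected by rule, of 1374 values 1227 stayed on the same side of the threshold, 139 lost a call, 8 (all of Gapdh) gained one and 0 reversed past it. Other fold changes in the text are not in this tally.

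With all 6 groups in 1 fit, the count for A1 against CHO-S was 17 in place of 27 at exponential and 23 in place of 15 at stationary phase. Between phases it was 7 in place of 20 in A1 and 16 in place of 9 in CHO-S, and for the phase change in A1 and A0 it was 1 in place of 7. That change gave 14 calls with A0 cultures 1 and 2 alone, and the phases in A0 gave 9 in place of 15 with A0 cultures 3 and 4 alone. With a replicate block, 4 members passed between phases in CHO-S in place of 9, and every other count stayed within 1.5 times. A0 culture 4 has no partner in A1 or CHO-S, so the block leaves it out where lines are compared within a phase. In each setting named here the share of all genes called moved in the same direction as the members' count.

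Leaving out 1 culture gave 10 to 30 calls for A1 against CHO-S at stationary phase, 0 to 29 between phases in CHO-S and 3 to 10 for the phase change in A1 and A0. For the phase change in CHO-S it gave 6 to 18 calls against A0 and 8 to 21 against A1. The upper ends for CHO-S came without its stationary replicate 1, and 10 in A1 and A0 came without A0 exponential replicate 4. The cause was not tested.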
